A study of Danio rerio with 18 samples.

Results

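Lycorine-treated kdrl+ cells were set against DMSO-treated kdrl+ cells, sorted from zebrafish embryos at 3 days post fertilization (dpf). The groups were taken from the sample titles and held 3 arrays each, which is 6 of the 18 arrays of the series. The Lycorine group came from pools of embryos kept from 2 to 3 dpf in 75 µM Lycorine with 1% DMSO, and the DMSO group from pools kept in 1% DMSO alone over the same time, so both carried the solvent. All embryos were of the AB strain and carried both reporters, Runx1+23:GFP and kdrl:DsRed2. The kdrl+ sort therefore selected cells by DsRed2 made under the kdrl promoter, and whole embryos, not sorted cells, met the compound. The other 12 arrays hold a negative sort and a Runx+ sort (reporter of hematopoietic stem and progenitor cells) under the same treatments, with 3 arrays per group. The labels call the arrays of a group biological replicates but do not say that each came from its own pool, so the spread that p-values rest on is that among these samples and may be technical.

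Endothelial cells line blood and lymph vessels. They depend on signals of vascular endothelial growth factor (VEGF), for which kdrl encodes a receptor, and on the Tie receptors, on Notch and ephrin signals in arteries, and on junction proteins such as VE-cadherin that seal the vessel wall. Endothelial cells also release chemokines and colony-stimulating factors that call in and expand neutrophils and macrophages, and in the embryonic tail they form part of the niche that holds blood stem cells. Lycorine is a plant alkaloid that blocks peptide bond formation at the ribosome and is known to dampen inflammatory signalling in cultured mammalian cells.

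Values are log2 intensities, 1 row per gene for 19247 genes, and differences are Lycorine minus DMSO on the log2 scale with the standard error (SE) of a limma fit to all 18 arrays (n = 3 arrays per group). A gene is said to have risen or fallen where its limma p was under 0.05 after Benjamini-Hochberg adjustment across the 19247 genes. The sort carried its label in the data. The gene kdrl averaged 10.84 ± 0.18 in Lycorine kdrl+ arrays and 10.33 ± 0.67 in DMSO kdrl+ arrays (SD, n = 3 each), against group means of 6.19 to 7.08 in the other 4 groups. The score of the endothelial junction and surface list, which averages over its genes how far a log2 value lies from the mean of that gene on the 18 arrays, was 1.1 to 2.09 in the 6 kdrl+ arrays and -1.19 to -0.55 in the other 12. The score of the blood stem and progenitor list was 0.45 to 1.18 in kdrl+ arrays and -0.72 to 0.14 in Runx+ arrays. It was -0.53 to -0.13 in negative arrays, so this list did not mark the Runx+ sort. Its member itga2b averaged 5.62 and 6.68 in Runx+ cells (Lycorine and DMSO), against 5.21 and 5.43 in kdrl+ cells. RNA of genes known from other cell types was also present in the kdrl+ sort. The neutrophil lysozyme gene lyz stood at 11.82 to 12.22 and the keratin gene krt4 at 9.93 to 11.64 across the 6 kdrl+ arrays. Group means of lyz were 12.03 and 12.07 in kdrl+ cells and 10.07 to 10.74 in the other sorts. Which cells gave this RNA was not tested. In sorted bulk samples, fewer cells of a type and less RNA per cell cannot be told apart.

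The DMSO kdrl+ arrays were more spread than the Lycorine kdrl+ arrays. Correlations between replicates were 0.975 to 0.982 with Lycorine and 0.919 to 0.926 with DMSO, and the root mean square SD of a gene was 0.27 with Lycorine and 0.5 with DMSO. DMSO replicate 3 stood apart from the other DMSO arrays in many gene groups, with the highest endothelial, myeloid and inflammatory scores and the lowest neural and retinal ones. DMSO replicate 2 stood apart in genes of liver, pancreas and gut. Several list medians below depend on one of these arrays, so each list's median is given with its range when 1 of the 6 kdrl+ arrays was left out in turn (the leave-out range).

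Few genes passed the test in kdrl+ cells. Of 19247 genes, 10 passed (0.0520%), of which 3 rose (0.0156%) and 7 fell (0.0364%). At an unadjusted p under 0.05 the counts were 1056 higher and 1136 lower. The median log2 difference over all genes was -0.06, and 43.6% of genes lay above 0. The fallen genes included a colony-stimulating factor, a chemokine and a clotting factor, and the risen genes a lectin and a protocadherin. In each of the 10 the 3 Lycorine arrays lay wholly above or wholly below the 3 DMSO arrays, a separation that 5.66% of all genes showed with Lycorine higher and 10.2% with Lycorine lower. The 10 were picked by a test on the same arrays, so their separation, here and below, gives no further support.

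**Figure D1:**
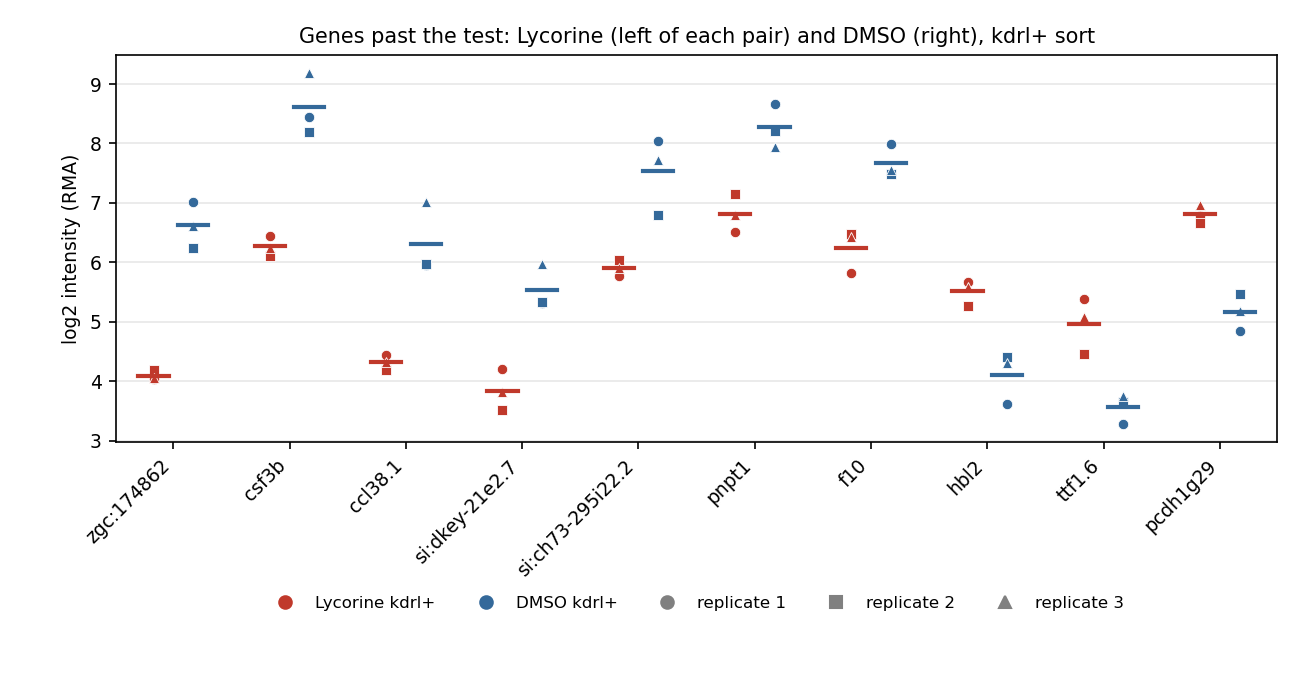
Log2 intensity (vertical axis) of the 10 genes past the limma test in the 6 kdrl+ arrays, with Lycorine at the left and DMSO at the right of each pair. Points are arrays, their shape gives the replicate number and the bar is the mean of 3. The Lycorine and DMSO points do not overlap for any of the 10 genes, and the widest gap between means is that of zgc:174862, at 4.09 and 6.63.

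Inflammatory signals were among the falls. The gene csf3b encodes granulocyte colony-stimulating factor, which drives the making and release of neutrophils. It stood at 6.44, 6.11 and 6.25 in Lycorine kdrl+ arrays, against 8.45, 8.19 and 9.19 in DMSO kdrl+ arrays. Each Lycorine array lay well under each DMSO array, and DMSO replicate 3 was the highest of the 6. The fall was -2.34 ± 0.40 (5.07-fold, limma adjusted p = 0.0421), and it was -2.05 ± 0.44 without DMSO replicate 3. The call was lost by a small margin with the replicate number as a block (adjusted p = 0.0501) and with treatment by number as a random block (adjusted p = 0.056). The CC chemokine gene ccl38.1 stood at 4.44, 4.19 and 4.33 with Lycorine, against 5.95, 5.97 and 7.01 with DMSO. Again the groups did not overlap and DMSO replicate 3 was highest. It fell by 1.99 ± 0.26 on the log2 scale (3.97-fold, limma adjusted p = 0.0133, the smallest of the comparison), and the value was -1.64 ± 0.23 without DMSO replicate 3. Its Lycorine values were dim, below the array medians of 4.87 to 5.12. Zebrafish have several ccl38 copies, which probes may not tell apart. A second copy, ccl38.6, differed by -1.54 ± 0.31 and did not pass (adjusted p = 0.113), with 4.34, 4.5 and 4.07 in Lycorine arrays against 6.24, 5.69 and 5.6 in DMSO arrays.

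The deepest fall was in zgc:174862, to which the tables give no further name. It stood at 4.03, 4.19 and 4.05 with Lycorine, against 7.02, 6.25 and 6.62 with DMSO. The Lycorine arrays were close together and well below each DMSO array, with a difference of -2.54 ± 0.38 (5.81-fold, limma adjusted p = 0.0323). The genes si:dkey-21e2.7 and si:ch73-295i22.2, likewise known by clone names, fell by 1.70 ± 0.26 and by 1.62 ± 0.27 on the log2 scale (both adjusted p = 0.0357). The first stood at 4.2, 3.51 and 3.82 with Lycorine against 5.31, 5.33 and 5.98 with DMSO, so the groups did not overlap. The second stood at 5.77, 6.04 and 5.91 with Lycorine against 8.04, 6.8 and 7.73 with DMSO, where DMSO replicate 2 came nearest to the Lycorine arrays.

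The 2 other falls were in genes of RNA decay and of clotting. The gene pnpt1 encodes polynucleotide phosphorylase, an exonuclease of the mitochondrion, and stood at 6.51, 7.15 and 6.79 with Lycorine against 8.67, 8.21 and 7.94 with DMSO. Its groups did not overlap, and the difference was -1.46 ± 0.24 (adjusted p = 0.0357). A second, dimmer row of pnpt1 differed by -0.62, in the same direction. The gene f10 encodes coagulation factor X, the protease that turns prothrombin into thrombin. It stood at 5.82, 6.48 and 6.43 with Lycorine against 7.99, 7.49 and 7.55 with DMSO, again with no overlap, and fell by 1.43 ± 0.24 on the log2 scale (2.7-fold, adjusted p = 0.0411). Its call was lost with the replicate block (adjusted p = 0.0501) and with the random block (adjusted p = 0.056).

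Of the 3 genes that rose, the strongest was pcdh1g29, a clustered protocadherin, one of a family of adhesion proteins best known from neurons. It stood at 6.78, 6.67 and 6.97 with Lycorine, against 4.84, 5.46 and 5.19 with DMSO. Each Lycorine array was above each DMSO array, and the difference was 1.65 ± 0.27 (3.13-fold, limma adjusted p = 0.0357). Its second row differed by 1.19, in the same direction, but clustered protocadherins share exons and resemble each other, so which member gave the signal is uncertain. The gene hbl2, named for a hexose-binding lectin, stood at 5.67, 5.27 and 5.58 with Lycorine against 3.61, 4.4 and 4.31 with DMSO, a difference of 1.40 ± 0.23 (adjusted p = 0.0357). The gene ttf1.6, one of a numbered set of copies, stood at 5.38, 4.46 and 5.08 with Lycorine against 3.28, 3.65 and 3.76 with DMSO, a difference of 1.41 ± 0.25 (adjusted p = 0.043, and 0.0501 with the replicate block). Neither gene's groups overlapped. Next in order of p were mef2b, a transcription factor of the family that governs muscle genes (-2.18 ± 0.39, adjusted p = 0.0516), si:ch211-86h15.1 (1.42 ± 0.26, adjusted p = 0.0724) and rsf1b.1 (1.31 ± 0.25, adjusted p = 0.0788), which did not pass and were picked out after their values were seen.

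Leaving out an array in turn moved the number of calls widely. In limma it was 0 without Lycorine replicate 1 (1425 genes at an unadjusted p under 0.05), 0 without Lycorine replicate 3 (1383 at an unadjusted p under 0.05), 4 without Lycorine replicate 2, 2 without DMSO replicate 1, 19 without DMSO replicate 2 and 424 without DMSO replicate 3. The 10 genes kept their direction in each of these fits, and all 10 were among the 424. The calls of csf3b and ttf1.6 were the least steady, each made in 7 of the alternatives tried (16 for csf3b and 15 for ttf1.6, which 1 filter removed), while zgc:174862 was called in 12 of 16 and ccl38.1 in 12 of 15.

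The same treatment was measured in the negative and Runx+ sorts. There, limma called 0 of 19247 genes in negative cells (0%) and 0 in Runx+ cells (0%), with 1302 and 2600 genes at an unadjusted p under 0.05. Whether an effect differed between sorts was tested as a difference of effects. None passed for kdrl+ minus negative cells (0 of 19247, 0%, 512 at an unadjusted p under 0.05, smallest adjusted p = 0.999) or for kdrl+ minus Runx+ cells (0 of 19247, 0%, 852 at an unadjusted p under 0.05, smallest adjusted p = 0.871). The median SE of such a difference was 0.383 log2 units, against 0.271 for an effect within a sort, so differences of effects were measured less precisely.

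**Figure D2:**
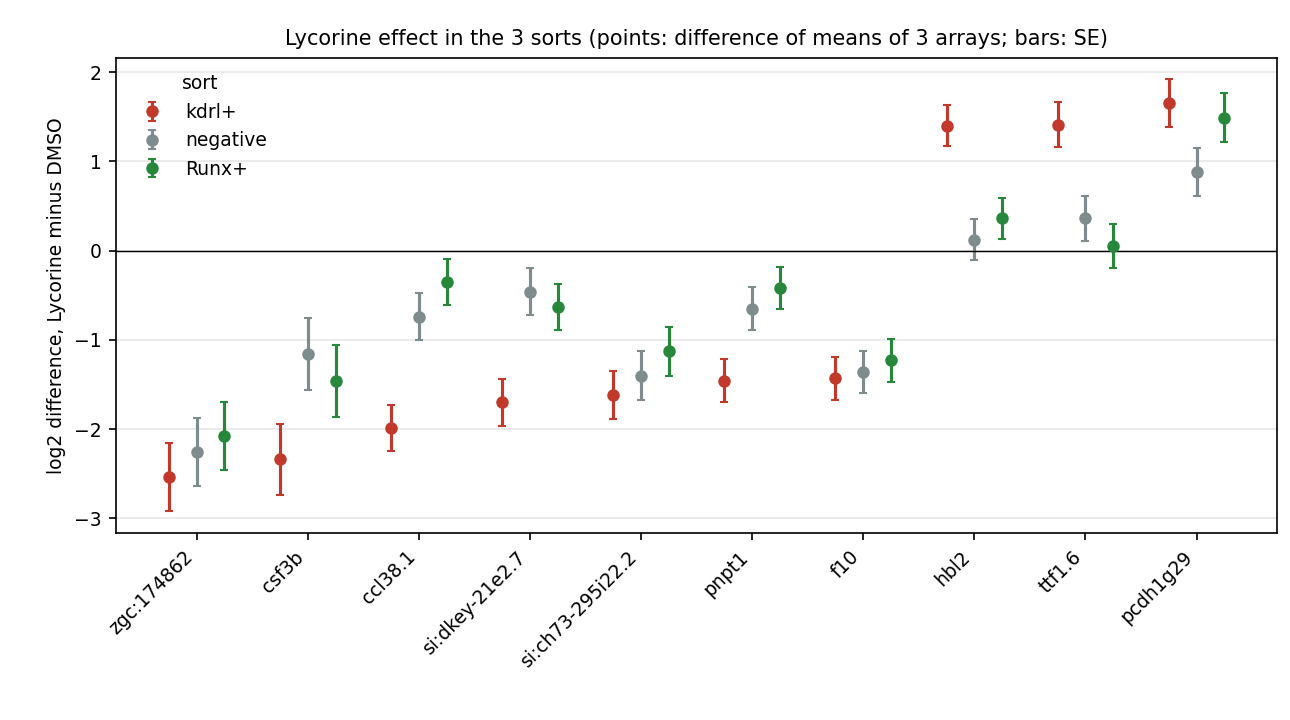
Lycorine minus DMSO difference on the log2 scale (vertical axis) of the same 10 genes in the kdrl+, negative and Runx+ sorts. Points are differences of means of 3 arrays and bars are SE. The values of zgc:174862 and f10 lie close together in the 3 sorts, while those of ccl38.1 and hbl2 are farther from 0 in kdrl+ cells, differences between sorts that did not pass adjustment.

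The difference of zgc:174862 was -2.54 ± 0.38 in kdrl+ cells, -2.26 ± 0.38 in negative cells and -2.08 ± 0.38 in Runx+ cells, and that of f10 was -1.43, -1.36 and -1.23 (SE 0.24 each). Likewise si:ch73-295i22.2 differed by -1.62, -1.4 and -1.13 (SE 0.27 each). By contrast ccl38.1 differed by -1.99 in kdrl+ cells, against -0.74 in negative and -0.35 in Runx+ cells. Its difference of effects was -1.25 ± 0.37 for kdrl+ minus negative cells (unadjusted p = 0.00369, adjusted p = 0.999 in limma) and -1.64 ± 0.37 for kdrl+ minus Runx+ cells (unadjusted p = 0.000377, adjusted p = 0.983). With Lycorine, ccl38.1 averaged 4.32 in kdrl+ cells, 4.1 in negative cells and 4.12 in Runx+ cells, against 6.31, 4.84 and 4.47 with DMSO in the same order of sorts. For csf3b the effect was -2.34 in kdrl+, -1.16 in negative and -1.46 in Runx+ cells, with a difference of effects of -1.18 ± 0.57 (adjusted p = 0.999) and -0.88 ± 0.57 (adjusted p = 0.983). The lectin gene hbl2 differed by 1.4 in kdrl+ cells, 0.12 in negative cells and 0.36 in Runx+ cells. Its difference of effects was 1.28 ± 0.33 for kdrl+ minus negative cells (unadjusted p = 0.00108, adjusted p = 0.999). With Lycorine, hbl2 averaged 5.51 in kdrl+, 2.83 in negative and 3.07 in Runx+ cells, against 4.11, 2.71 and 2.71 with DMSO. In the other sorts hbl2 was thus dim with either treatment, well below the array medians of 4.87 to 5.12. The protocadherin pcdh1g29 differed by 1.65 in kdrl+, 0.88 in negative and 1.49 in Runx+ cells.

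The wider set of inflammatory genes lay lower with Lycorine in kdrl+ cells, though few passed. Of 51 cytokines and chemokines measured, 2 fell (csf3b and ccl38.1) and 0 rose, beside 0.0364% and 0.0156% of all genes. With either block ccl38.1 alone of these passed. The list was chosen with earlier results of these data known. The median difference of the 51 was -0.32 (leave-out range -0.39 to -0.16), beside -0.06 for all genes, and 9 of the 51 lay above 0. In 14 the arrays did not overlap with Lycorine lower, and in 1 with Lycorine higher, beside 10.2% and 5.66% of all genes. The list score was 0.26, -0.07 and -0.1 in Lycorine arrays, against 0.28, 0.38 and 0.8 in DMSO arrays, so the groups did not overlap but Lycorine replicate 1 and DMSO replicate 1 nearly met. Without DMSO replicate 3, which had the highest score, the median was -0.16. In that fit 3 members fell, now with ccl38.6, beside 0.603% of all genes. The median was -0.39 in negative cells and -0.37 in Runx+ cells.

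Among the members that did not pass, cxcl8a, the interleukin 8 chemokine that attracts neutrophils, stood at 6.65, 6.06 and 6.34 with Lycorine against 7.49, 8.34 and 8.37 with DMSO (-1.71 ± 0.43, adjusted p = 0.18). The thymus chemokine gene ccl25b stood at 7.15, 5.57 and 7.68 with Lycorine against 10.03, 8.46 and 8.63 with DMSO (-2.24 ± 0.61, adjusted p = 0.218). Both had Lycorine arrays wholly below DMSO arrays. The paralog csf3a differed by -0.56 ± 0.25 (adjusted p = 0.409), and the macrophage growth factor genes csf1a and csf1b by -0.46 ± 0.25 and -0.41 ± 0.38, with overlapping arrays in each. In the niche list, which shares cxcl8a with the inflammatory list, 0 of 32 genes passed and the median was -0.18 (leave-out range -0.29 to -0.04). The niche chemokine cxcl12a, which holds blood stem cells in place, stood at 9.33, 8.52 and 8.84 with Lycorine against 9.49, 9.61 and 9.82 with DMSO (-0.74 ± 0.35, adjusted p = 0.432), while cxcl12b differed by -0.27 ± 0.65.

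The NF-kappaB, prostaglandin and feedback list, which holds regulators of inflammatory signalling, had a median of -0.2 over 46 genes, with 0 past the test. Arrays did not overlap in 7 with Lycorine lower and in 1 with Lycorine higher, beside 10.2% and 5.66% of all genes. Its median turned to 0.21 without DMSO replicate 3 and was -0.35 without DMSO replicate 2. In negative and Runx+ cells the list median was -0.41 and -0.49. The gene separated upward was tlr4ba, a Toll-like receptor gene, at 4.51, 4.56 and 4.82 with Lycorine against 3.33, 3.38 and 4.37 with DMSO (0.93 ± 0.31, adjusted p = 0.318), and without DMSO replicate 3 it was called higher (1.27, adjusted p = 0.0389). The signalling adaptor gene traf1 stood at 4.56, 4.73 and 4.57 with Lycorine against 5.77, 5.25 and 5.51 with DMSO (-0.89 ± 0.21, adjusted p = 0.165), and the value without that array was also -0.89. The NF-kappaB inhibitor gene nfkbie stood at 6.59, 6.86 and 6.59 with Lycorine against 7.28, 7 and 8.68 with DMSO (-0.97 ± 0.36), and the value without DMSO replicate 3 was -0.46 ± 0.30. The subunit genes nfkb1, nfkb2 and rela differed by -0.83 ± 0.36, 0.09 ± 0.58 and 0.01 ± 0.31, and none passed. Of 34 interferon-stimulated genes 0 passed, with a median of -0.15 (leave-out range -0.22 to -0.07), and mxa, an antiviral GTPase gene, differed by -0.02 ± 0.31.

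Markers of leukocytes are given beside these lists because their RNA was present in the sort. Of 37 myeloid genes 0 passed, the median was -0.5 (leave-out range -0.66 to -0.31) and 3 lay above 0. In 8 the Lycorine arrays lay wholly below the DMSO arrays, beside 10.2% of all genes. The myeloid score was 0.69, 0.55 and 0.32 with Lycorine, against 0.67, 0.9 and 1.47 with DMSO, highest in DMSO replicate 3 and overlapping at replicate 1. Defining markers were well above the lowest values of the arrays. The neutrophil peroxidase gene mpx stood at 9.51, 9.52 and 9.35 with Lycorine against 10, 10.02 and 10.78 with DMSO (-0.81 ± 0.57, adjusted p = 0.599), but lyz differed by -0.03 ± 0.38 and the macrophage gene mpeg1.1 by -0.11 ± 0.30. The myeloid median was -0.55 in negative cells and -0.76 in Runx+ cells, so the lower values were not particular to kdrl+ cells. The part of leukocytes in the fall of csf3b and ccl38.1 was not tested.

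**Figure D3:**
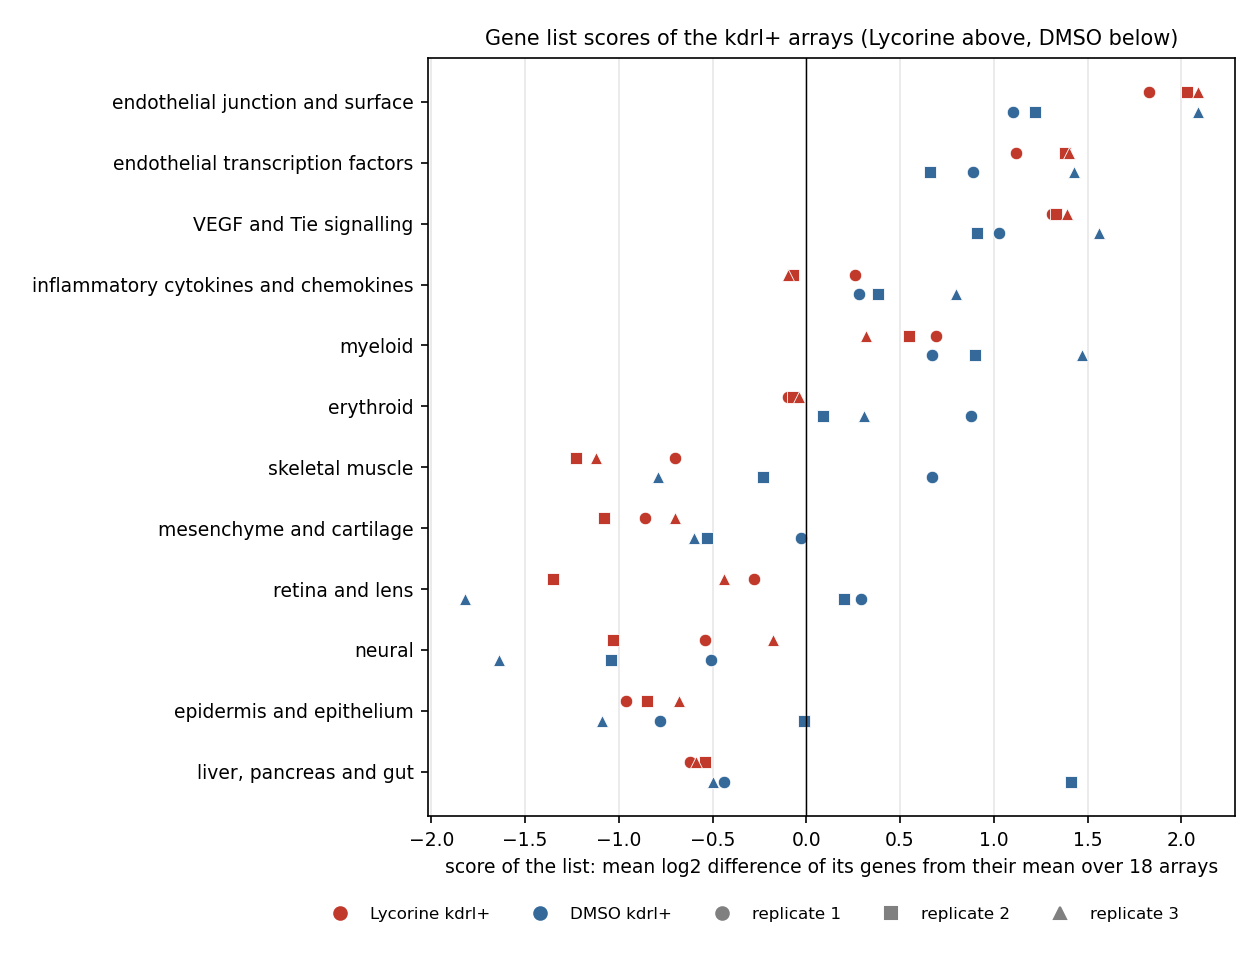
Scores of 12 gene lists (horizontal axis, mean log2 difference of a list's genes from their mean over 18 arrays) in the 6 kdrl+ arrays, with Lycorine above DMSO in each row and the symbol giving the replicate. The DMSO points spread more widely than the Lycorine points in most rows, with DMSO replicate 3 at 2.09 for endothelial junction genes and -1.82 for retina and lens, and DMSO replicate 2 at 1.41 for liver, pancreas and gut.

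Endothelial genes, which define the sort, did not pass the test with all arrays in the fit. Of 37 junction and surface genes, 0 passed, the median was 0.53 (leave-out range 0.36 to 0.92) beside -0.06 for all genes, and 32 lay above 0. In 6 the Lycorine arrays lay wholly above the DMSO arrays, beside 5.66% of all genes. Their score was 1.83, 2.03 and 2.09 in Lycorine arrays against 1.1, 1.22 and 2.09 in DMSO arrays. DMSO replicates 1 and 2 lay below each Lycorine array, and DMSO replicate 3 matched the highest. The median was -0.14 in negative cells and 0.03 in Runx+ cells. The VE-cadherin gene cdh5 stood at 11, 11.17 and 10.92 with Lycorine against 9.41, 10.03 and 11 with DMSO (0.88 ± 0.39, adjusted p = 0.405). The adhesion gene pecam1a stood at 10.87, 10.5 and 10.61 with Lycorine against 9.4, 9.39 and 10.42 with DMSO (0.92 ± 0.32, adjusted p = 0.341), without overlap. The water channel gene aqp8a.1 stood at 9.91, 9.08 and 9.78 with Lycorine against 8.43, 7.52 and 9.02 with DMSO (1.27 ± 0.34, adjusted p = 0.209), also without overlap. For kdrl itself the values were 10.63, 10.95 and 10.94 with Lycorine against 9.71, 10.26 and 11.04 with DMSO (0.50 ± 0.32, adjusted p = 0.565), overlapping through DMSO replicate 3.

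**Figure D4:**
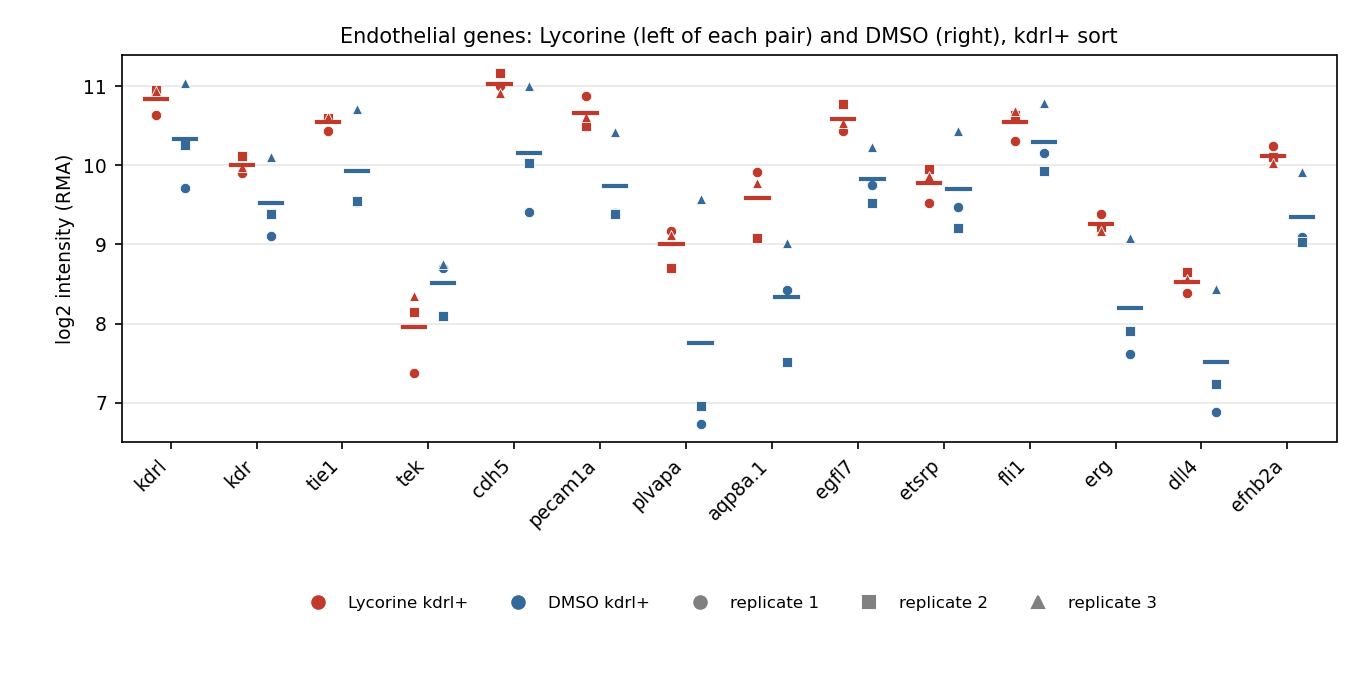
Log2 intensity (vertical axis) of 14 endothelial genes in the 6 kdrl+ arrays, with Lycorine at the left and DMSO at the right of each pair, symbols for replicates and bars for means. DMSO replicate 3 (triangle) lies near the Lycorine points for most genes while DMSO replicates 1 and 2 lie lower, as for plvapa at 6.73, 6.96 and 9.57.

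The other vessel lists also had medians above 0, which were smaller and lay between 0.01 and 0.17 without DMSO replicate 2. For 20 genes of VEGF and Tie signalling the median was 0.24 with all arrays, 0.05 without DMSO replicate 2 and 0.5 without DMSO replicate 3, and the score was 1.31, 1.33 and 1.39 with Lycorine, against 1.03, 0.91 and 1.56 with DMSO. The VEGF receptor gene kdr differed by 0.47 ± 0.31, the decoy receptor gene flt1 by 0.63 ± 0.32 and tie1 by 0.61 ± 0.39, and 0 of the 20 passed. The angiopoietin receptor gene tek differed the other way, at 7.37, 8.15 and 8.35 with Lycorine against 8.7, 8.09 and 8.75 with DMSO (-0.55 ± 0.28, adjusted p = 0.458). Of 24 transcription factors of endothelium 0 passed, with a median of 0.29 (0.12 without DMSO replicate 2, leave-out range 0.12 to 0.5). The Ets factor gene erg stood at 9.38, 9.22 and 9.17 with Lycorine against 7.62, 7.91 and 9.08 with DMSO (1.05 ± 0.31, adjusted p = 0.263), while etsrp, which directs vascular fate, and fli1 differed by 0.08 ± 0.32 and 0.26 ± 0.49. Of 25 arterial Notch and ephrin genes 0 passed, with a median of 0.31 (0.17 without DMSO replicate 2, leave-out range 0.16 to 0.55). The Notch ligand gene dll4 stood at 8.38, 8.65 and 8.56 with Lycorine against 6.88, 7.24 and 8.44 with DMSO (1.01 ± 0.34, adjusted p = 0.329). The median was 0.2 for 22 venous, lymphatic and scavenger genes (leave-out range 0.04 to 0.47). It was 0.17 for 27 vascular peptide and lipid receptors (leave-out range 0.01 to 0.31). Both lists had 0 past the test, and without DMSO replicate 2 these medians were 0.04 and 0.01.

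Without DMSO replicate 3, limma called 308 genes higher (1.6%) and 116 lower (0.603%). Of these 424, 57 stood in a gene list (34 higher and 23 lower), beside 1583 of all 19247 genes. Genes named only for a call in this fit were picked after their values were seen. The array was itself singled out after its values were seen, and for junction and surface genes its score matched the highest Lycorine array. Leaving it out widens such differences, so the calls of this fit give no separate support for them. Of the 37 junction and surface genes 8 were then called higher and 0 lower, and the list median was 0.92. They were plvapa (2.15 ± 0.24), aqp8a.1 (1.62 ± 0.34), CD93 (1.45 ± 0.28), mmrn2b (1.44 ± 0.33), mmrn2a (1.34 ± 0.28), podxl (1.31 ± 0.27), pecam1a (1.27 ± 0.32) and robo4 (0.82 ± 0.20), with limma adjusted p between 0.00178 and 0.0496. The gene plvapa, which encodes the diaphragm protein of endothelial fenestrae, shows what the array decides. It stood at 9.17, 8.7 and 9.12 with Lycorine, against 6.73, 6.96 and 9.57 with DMSO, and differed by 1.25 ± 0.48 with all 6 arrays (adjusted p = 0.37). In the other vessel lists the calls without that array were erg (1.49 ± 0.26), hlx1 (1.24 ± 0.27), dll4 (1.47 ± 0.30), dlc (1.42 ± 0.30), efnb2a (1.06 ± 0.22), tll1 (1.14 ± 0.20) and ramp2 (0.99 ± 0.24), each higher with Lycorine. Leaving out DMSO replicate 2 instead gave a junction and surface median of 0.45. The part of cell make-up in the values of DMSO replicate 3 was not tested.

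With that array left out the test of differences between sorts also gave calls, likewise named after their values were seen. No other setting gave such a call, nor did the fit with all arrays. They rest on leaving out an array singled out after its values were seen, so they do not establish a difference between sorts. For kdrl+ minus negative cells 1 gene passed, plvapa, at 2.64 ± 0.32 (limma adjusted p = 0.00613). For kdrl+ minus Runx+ cells 5 passed: sh3tc2 (2.45 ± 0.31), plvapa (2.31 ± 0.32), fam167b (1.94 ± 0.30), SH3BP2 (1.66 ± 0.26) and the lens crystallin gene crygm2d15 (-3.62 ± 0.46), with adjusted p between 0.00587 and 0.0377. With all arrays, sh3tc2 stood at 7.94, 7.83 and 7.79 with Lycorine against 6.55, 6.6 and 7.77 with DMSO in kdrl+ cells, so that DMSO replicate 3 again lay by the Lycorine arrays. The largest rises in kdrl+ cells without that array, picked out after their values were seen, included shisa7b (2.31 ± 0.53), ccdc80 (2.08 ± 0.42) and the spindle gene CENPF (1.97 ± 0.36). The largest falls were led by the crystallin gene crygm2d1 (-3.02 ± 0.74) and slc25a4 (-2.74 ± 0.61), the adenine nucleotide carrier of the mitochondrial membrane.

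**Figure D5:**
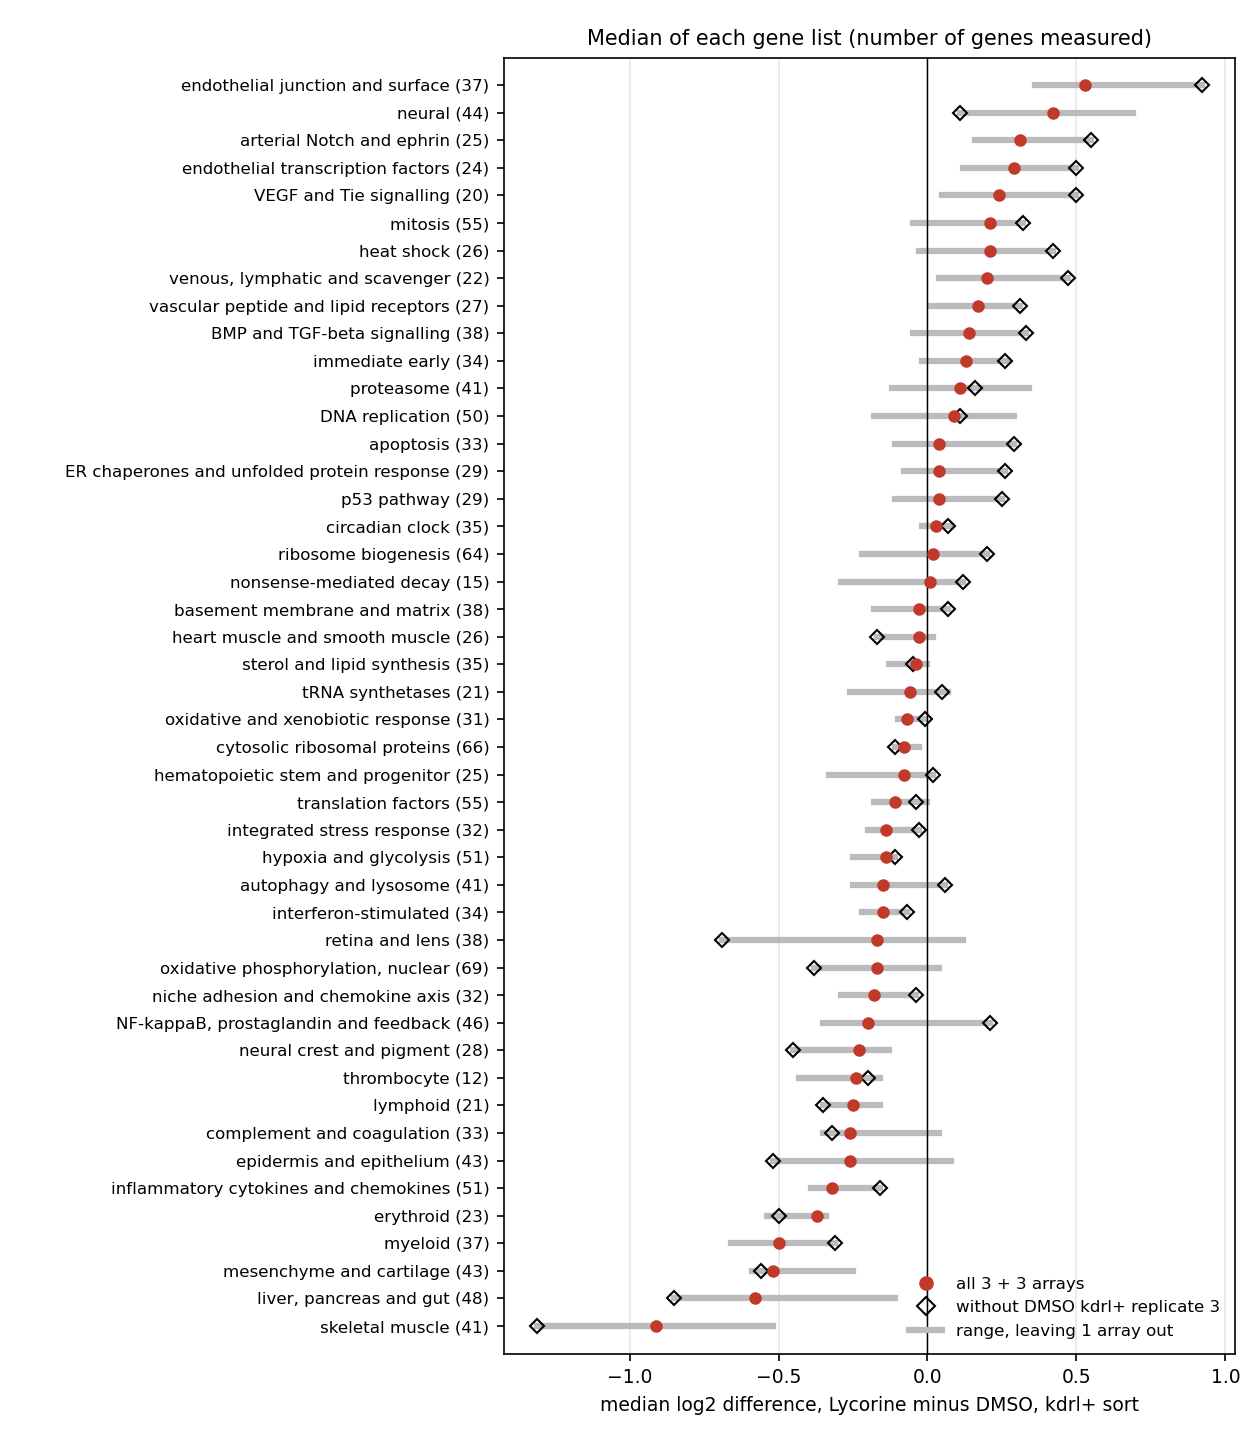
Median log2 difference, Lycorine minus DMSO in kdrl+ cells (horizontal axis), of each gene list with the number of genes measured in brackets. Filled points use all 6 arrays, open diamonds leave out DMSO replicate 3, and grey bars span the values with 1 array left out. Endothelial junction and surface genes lie at the high end (0.53) and skeletal muscle at the low end (-0.91), and for both lists the grey bar stays on 1 side of 0.

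Genes of skeletal muscle, markers of another cell type, lay lower with Lycorine. Of 41 muscle genes 0 passed, the median was -0.91 (leave-out range -1.31 to -0.52) and 3 lay above 0. In 20 the Lycorine arrays lay wholly below the DMSO arrays, beside 10.2% of all genes. The score was -0.7, -1.23 and -1.12 with Lycorine against 0.67, -0.23 and -0.79 with DMSO, and the groups overlapped through Lycorine replicate 1 and DMSO replicate 3. The myosin light chain gene myl1 stood at 8.28, 7.63 and 7.2 with Lycorine against 10.67, 9.31 and 8.7 with DMSO (-1.85 ± 0.39, adjusted p = 0.113). The parvalbumin gene pvalb2, a calcium buffer of fast muscle, differed by -1.50 ± 0.32 (adjusted p = 0.115), the creatine kinase gene ckma by -1.99 ± 0.57 and the actin gene actc1b by -1.16 ± 0.34. DMSO replicate 1 was highest for each of these. Without DMSO replicate 3, 8 muscle genes were called lower, beside 0.603% of all genes, and the list median was -1.31. Among the 8 were myl1 (-2.28 ± 0.38), mylpfa (-2.17 ± 0.49) and pvalb2 (-1.78 ± 0.33). The muscle median was -0.48 in negative and -0.61 in Runx+ cells.

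Connective tissue genes followed the same direction. Of 43 mesenchyme and cartilage genes 0 passed and the median was -0.52 (leave-out range -0.59 to -0.25). In 15 the Lycorine arrays lay wholly below the DMSO arrays, beside 10.2% of all genes. The scores were -0.86, -1.08 and -0.7 with Lycorine against -0.03, -0.53 and -0.6 with DMSO. The fibrillar collagen gene col1a1b stood at 6.29, 7.16 and 7.64 with Lycorine against 8.98, 8.09 and 7.68 with DMSO (-1.22 ± 0.35, adjusted p = 0.239), and col1a2 differed by -0.96 ± 0.32. Basement membrane and matrix genes, many of them made by endothelium, had a median of -0.03 (leave-out range -0.18 to 0.07) over 38 genes with 0 past the test, and the vessel collagen genes col4a1 and col4a2 differed by 0.34 ± 0.34 and 0.33 ± 0.39.

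Other tissues split. Of 44 neural genes 0 passed, with a median of 0.42, and scores were -0.54, -1.03 and -0.18 with Lycorine against -0.51, -1.04 and -1.64 with DMSO, lowest in DMSO replicate 3. The transcription factor gene en2b, known from the midbrain-hindbrain boundary, stood at 5.91, 4.6 and 5.99 with Lycorine against 3.68, 3.91 and 3.35 with DMSO (1.85 ± 0.36, adjusted p = 0.095), and the neuronal RNA-binding gene elavl4 at 8.12, 7.74 and 8.53 against 6.98, 6.62 and 6.26 (1.52 ± 0.32, adjusted p = 0.113). Neither overlapped. The leave-out range of the neural median was 0.11 to 0.69, lowest without DMSO replicate 3. The retina and lens median was -0.17 over 38 genes with all arrays, 0.12 without DMSO replicate 2 and -0.69 without DMSO replicate 3. In that last fit lgsn, crygmxl2 and crygm2d1 were called lower, beside 0.603% of all genes. Epidermal genes had a median of -0.26 over 43, liver, pancreas and gut genes -0.58 over 48, and neural crest and pigment genes -0.23 over 28, with 0 past the test in each. The epidermal median turned to 0.08 without DMSO replicate 2 and was -0.52 without DMSO replicate 3, and the neural crest and pigment median ran from -0.45 to -0.13. The pancreatic elastase gene ela2 stood at 4.81, 4.91 and 4.52 with Lycorine against 5.42, 10.3 and 6.37 with DMSO. Without DMSO replicate 2 the median of the liver, pancreas and gut list was -0.11 (leave-out range -0.85 to -0.11). The heart and smooth muscle list had a median of -0.03 over 26 genes (leave-out range -0.17 to 0.02), 0 past the test.

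Blood lists gave no calls with all arrays. Of 25 stem and progenitor genes 0 passed, with a median of -0.08 (leave-out range -0.33 to 0.02). The factor genes LYL1 and gata2b, both of early blood, stood at 7.15, 6.75 and 6.33 (LYL1) and 6.02, 6.01 and 5.44 (gata2b) with Lycorine, against 8.08, 7.64 and 7.32 (LYL1) and 7.73, 6.21 and 6.96 (gata2b) with DMSO. Their differences were -0.94 ± 0.24 (adjusted p = 0.18) and -1.14 ± 0.30 (adjusted p = 0.202), without overlap in either, while runx1 and myb differed by -0.29 ± 0.21 and -0.22 ± 0.37. The gene mecom, another factor of blood stem cells, lay the other way without overlap, at 9.03, 9.03 and 9.01 with Lycorine against 8, 7.84 and 8.72 with DMSO (0.84 ± 0.39, adjusted p = 0.424). Erythroid genes had a median of -0.37 over 23 (leave-out range -0.54 to -0.34), and the globin gene hbbe2 stood at 9.84, 9.51 and 10.04 with Lycorine against 11.58, 11.12 and 10.33 with DMSO (-1.21 ± 0.37, adjusted p = 0.281). Lymphoid and thrombocyte genes had medians of -0.25 over 21 and -0.24 over 12, with 0 past the test and leave-out ranges of -0.35 to -0.16 and -0.43 to -0.16. In the complement and coagulation list f10 was the 1 gene of 33 that fell, and 0 rose, beside 0.0364% and 0.0156% of all genes. The list median was -0.26 (leave-out range -0.35 to 0.04), and it turned to 0.04 without DMSO replicate 2. After f10 the smallest p was that of THBD, the gene of thrombomodulin, which restrains clotting on the vessel wall, at 8.77, 9.55 and 9.25 with Lycorine against 7.83, 8.04 and 9.28 with DMSO (0.81 ± 0.39, adjusted p = 0.449). Other clotting genes were at -0.66 ± 0.32 (f7, factor VII) and -0.56 ± 0.28 (pros1, protein S).

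Lists of protein synthesis, the process that Lycorine inhibits, had medians near that of all genes, with members on both sides. Most ribosomal proteins lay below 0, by small amounts. The medians were -0.08 over 66 cytosolic ribosomal proteins, -0.11 over 55 translation factors, 0.02 over 64 ribosome biogenesis genes and -0.06 over 21 tRNA synthetases, beside -0.06 for all genes, with 0 past the test in each. The leave-out ranges were -0.11 to -0.03 for ribosomal proteins, -0.18 to 0 for translation factors, -0.22 to 0.2 for ribosome biogenesis and -0.26 to 0.07 for tRNA synthetases. Members farther from 0 included utp3 (1.12 ± 0.40), nop2 (0.93 ± 0.31) and bysl (-0.80 ± 0.25) of ribosome biogenesis, the initiation factor gene eif5b (0.72 ± 0.33) and aimp2 (-0.75 ± 0.27) of the synthetase complex, with adjusted p of 0.3 to 0.423. Of the 66 ribosomal proteins 13 lay above 0, beside 43.6% of all genes. In 12 the Lycorine arrays lay wholly below the DMSO arrays and in 3 wholly above, beside 10.2% and 5.66% of all genes. The genes rps10 (-0.43 ± 0.20) and rps26 (0.36 ± 0.18) show each direction. The biogenesis gene mphosph10 stood at 7.94, 7.58 and 7.31 with Lycorine against 6.27, 6.63 and 7.11 with DMSO (0.94 ± 0.26, adjusted p = 0.239). Without DMSO replicate 3 it was 1 of 5 biogenesis genes called higher, beside 1.6% of all genes. In the integrated stress response, through which cells react to blocked translation or amino acid lack, the median was -0.14 over 32 genes (leave-out range -0.2 to -0.03) with 0 past the test. Its factor gene atf4a stood at 9.45, 10.27 and 10.43 with Lycorine against 11.19, 10.54 and 10.56 with DMSO (-0.72 ± 0.27, adjusted p = 0.367), and ddit4, an inhibitor of mTOR signalling, at 7.32, 7.18 and 7.73 against 8.72, 8.07 and 8.45 (-1.0 ± 0.29, adjusted p = 0.241). Neither overlapped, while atf4b and ddit3 differed by -0.15 ± 0.25 and 0.17 ± 0.44.

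Stress and turnover lists likewise gave 0 calls. The medians were 0.04 over 29 genes of endoplasmic reticulum chaperones and the unfolded protein response, 0.21 over 26 heat shock genes, 0.11 over 41 proteasome genes, 0.01 over 15 nonsense-mediated decay genes and -0.15 over 41 autophagy and lysosome genes. The leave-out ranges were -0.08 to 0.26, -0.03 to 0.42, -0.12 to 0.34, -0.29 to 0.12 and -0.25 to 0.06 in the same order, so the sign of each of these medians depended on single arrays. The retrotranslocation gene derl3 stood at 5.99, 5.89 and 5.86 with Lycorine against 6.8, 7.07 and 7.41 with DMSO (-1.18 ± 0.26, adjusted p = 0.137), without overlap. The chaperone genes hspa5 and hsp90b1 differed by -0.28 ± 0.29 and 0.15 ± 0.23. The decay factor gene upf3b stood at 8.21, 7.56 and 7.39 with Lycorine against 5.92, 6.27 and 7.16 with DMSO (1.27 ± 0.37, adjusted p = 0.241), while upf1 differed by -0.08 ± 0.28. For p53 targets the median was 0.04 over 29 genes, with mdm2 at 0.08 ± 0.27, and for apoptosis it was 0.04 over 33, each with a leave-out range from -0.11 (without DMSO replicate 2) to 0.25 for p53 targets and 0.29 for apoptosis (without DMSO replicate 3). Oxidative and xenobiotic response genes had a median of -0.07 over 31 (leave-out range -0.1 to -0.01).

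Cell division genes lay slightly above 0, with 0 past the test among 55 mitosis genes (median 0.21) and 50 DNA replication genes (median 0.09). The kinetochore gene CENPF stood at 7.92, 7.35 and 7.25 with Lycorine against 5.11, 5.96 and 6.47 with DMSO (1.66 ± 0.35, adjusted p = 0.113). The topoisomerase gene top2a stood at 8.78, 8.6 and 8.53 against 7.34, 7.29 and 8.4 (0.96 ± 0.26, adjusted p = 0.218), and the DNA ligase gene lig1 at 7.77, 7.53 and 7.51 against 6.05, 6.66 and 6.75 (1.12 ± 0.32, adjusted p = 0.239). None of the 3 overlapped, but the cyclin genes ccnb1 and ccnb2 differed by 0.04 ± 0.29 and -0.16 ± 0.20. In the whole lists, Lycorine arrays lay wholly above DMSO arrays in 5 mitosis and 2 DNA replication genes, beside 5.66% of all genes. They lay wholly below in 0 and 2, beside 10.2% of all genes. DMSO replicate 2 had the lowest mitosis score of the 6 arrays, -0.38. Leaving it out brought the mitosis median to -0.05 and the DNA replication median to -0.18. The leave-out ranges were -0.05 to 0.32 and -0.18 to 0.29 in the same order.

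Metabolic and clock genes gave 0 calls. The medians were -0.14 over 51 hypoxia and glycolysis genes, -0.17 over 69 nuclear genes of oxidative phosphorylation, -0.04 over 35 sterol and lipid genes and 0.03 over 35 clock genes. The leave-out ranges were -0.25 to -0.11, -0.38 to 0.04, -0.13 to 0 and -0.02 to 0.08 in the same order. The pyruvate kinase gene pkmb stood at 6, 5.19 and 5.49 with Lycorine against 8.28, 6.48 and 6.13 with DMSO (-1.40 ± 0.51, adjusted p = 0.35), and the cytochrome oxidase gene cox5b2 differed by -1.42 ± 0.34 (adjusted p = 0.166), or by -0.75 as the mean of its rows. Of 34 immediate early genes 0 passed, with a median of 0.13 (leave-out range -0.02 to 0.27), and the flow- and stress-responsive factor gene egr1 stood at 11.42, 11.72 and 11.68 with Lycorine against 10.85, 11.23 and 11.37 with DMSO (0.45 ± 0.24). Of 38 BMP and TGF-beta genes 0 passed, with a median of 0.14 (leave-out range -0.05 to 0.33). The vascular BMP ligand gene bmp10 stood at 5.21, 5.92 and 5.39 with Lycorine against 4.03, 4.11 and 5.11 with DMSO (1.09 ± 0.27, adjusted p = 0.18), without overlap.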

How the data were processed

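The values were taken from the authors' deposited table, which holds log2 intensities for 65528 probe rows of 18 single-channel arrays. Per the submitters' processing notes, oligo, RMA and limma were used, with versions and genome build not given in the sources used here. RNA from sorted cells had been amplified and biotin-labelled, per the labels' protocols. RMA sets the arrays to a common distribution, so a shift of most genes in one direction would not be seen. Values ran from 1.53 to 13.32, with array medians of 4.87 to 5.12. The number of arrays limits the precision.

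Of the rows, 20806 had 1 gene symbol, 855 several and 43867 none in the platform annotation. Symbols were updated through the RefSeq gene table (assembly GRCz12tu) by Entrez number for 20323 rows, by symbol for 72 and by synonym for 43, and 368 kept their name. The row with the highest mean over 18 arrays stood for a gene, which gave 19247 genes. No genome was used, so no positions are given.

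A model with a mean for each of the 6 groups was fitted in limma 3.58.1 (R 4.3.3), with moderated errors and Benjamini-Hochberg adjustment over all genes at 0.05. Tables were made with Python 3.11.15 and pandas 2.3.3, figures with matplotlib 3.10.9, and the fit was tested on simulated data. No 2 arrays were identical. Deviations of kdrl+ arrays with the same replicate number correlated at 0.073, -0.027 and -0.109, so the numbers were not taken as pairs across treatments. Within a treatment, same-numbered kdrl+ and negative arrays correlated at 0.116 to 0.425 in the 6 pairs, and kdrl+ and Runx+ arrays at -0.23 to 0.42, so arrays of a number may share a source, which the random block of treatment by number allows for. Alternatives changed the blocks, arrays in the fit, weights, normalization, filter, row per gene or moderation, or left out an array. Named genes were kdrl, csf3b and ccl38.1, markers of cell types, up to 15 largest rises and falls past the test, the 4 genes of smallest p in each list and each list's first 3 symbols. Genes named only for a call without DMSO replicate 3, in a list or between sorts, were picked after their values were seen. So were the others said to be. The 46 lists (1583 of 1820 symbols measured) and the comparison itself were chosen with earlier results of these data known.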

Additional observations from a re-analysis of the deposited data

Results flagged for a closer look

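The genes ebp and cd8a differed in opposite directions in kdrl+ cells and in another sort, with no overlap of Lycorine and DMSO arrays in either. They were found by a search of the named genes, and the share of all genes with such a pattern was not counted. Both genes were dim, below the array medians of 4.87 to 5.12. The sterol isomerase gene ebp stood at 3.71, 3.81 and 3.32 with Lycorine against 3.99, 4.16 and 3.96 with DMSO in kdrl+ cells, a difference of -0.42, while it was 0.17 in negative cells. In negative cells ebp stood at 4.03, 4.27 and 3.97 with Lycorine against 3.85, 3.93 and 3.96 with DMSO, barely apart. The difference of effects was -0.60 ± 0.30 and did not pass (limma unadjusted p = 0.0635, adjusted p = 0.999). The T cell co-receptor gene cd8a stood at 3.89, 3.97 and 4.05 with Lycorine against 3.54, 3.19 and 3.71 with DMSO in kdrl+ cells, a difference of 0.49, while it was -0.35 in Runx+ cells. In Runx+ cells cd8a stood at 2.97, 3.08 and 3.1 with Lycorine against 3.15, 3.36 and 3.69 with DMSO, with a narrow gap. The difference of effects was 0.84 ± 0.29 and did not pass either (limma unadjusted p = 0.0101, adjusted p = 0.983).

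Probe rows outside the gene comparison also carried signal. In a limma fit to all 65528 rows, 371 of the 44722 rows without exactly 1 gene symbol passed (0.83%), 327 higher and 44 lower with Lycorine, against 50 of the 20806 rows with 1 symbol (0.24%). The median difference of the 371 was 1.57 among the higher and -1.72 among the lower rows. With 1 array left out the number ran from 13 to 2181, the highest being without DMSO kdrl+ replicate 3. These rows are unnamed here.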

How the results depend on the processing

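The count of 10 genes called in kdrl+ cells ran from 0 to 424 with 1 array left out, 424 being without DMSO kdrl+ replicate 3. It was 1 (zgc:174862) in a fit to only the 6 arrays compared and 6 among the 13523 genes left without those of mean below 5. That filter removed the called genes ccl38.1, si:dkey-21e2.7, hbl2 and ttf1.6, whose calls thus rest on dim signal. With the replicate block it was 13, of which 7 were among the 10, and with treatment by number as a random block (correlation 0.135) it was 8. The calls of csf3b and f10 were lost in both blocks (adjusted p = 0.0501 and 0.056 for each gene) and that of ttf1.6 in the first. The other settings, which were array weights, a spread for each treatment, median centring, cyclic loess, the mean of a gene's rows and another moderation, gave 9 to 11. Among these, csf3b was lost under median centring, csf3b and si:dkey-21e2.7 under cyclic loess, and pnpt1 under the mean of rows. Array weights lost ttf1.6, and a spread for each treatment lost f10 and ttf1.6. Differences between sorts gave 0 calls in each of these settings, the replicate block included, and 0 to 1 (kdrl+ minus negative) or 0 to 5 (kdrl+ minus Runx+) with 1 array left out. Over the named genes, 4841 values kept their side of the threshold. The uncalled values among them lay within 1 SD between replicates of the value reported. Some of these changed sign, as nfkb2 did, from 0.09 to -0.35 without DMSO replicate 2. Another 57 passed only under an alternative, and 58 passed in the fit reported and not under an alternative. A further 10 uncalled values moved by at least 1 SD between replicates (6 under cyclic loess and 4 under the mean of a gene's rows). None that was called changed sign. The cause of these changes was not tested. With 3 arrays a group and a median SE of 0.271, small differences could not be told from the spread, and a gene missing the test is not shown to be unaffected.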
